A study of Mus musculus with 18 samples.

Results

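The 7 genes Mpp6, 9130204K15Rik, Nid2, Nupr1, Pfkfb4, Smox and Fmo1 are described here across colon crypts and sorted colon cells, out of 52636 gene IDs listed for the same libraries. They were picked from their measured crypt values, because the mean of each differed in the same direction between mice lacking the receptor Olfr78 and control mice in both of the knockout lines studied. Their crypt differences chose them and are therefore given as a description, with no test and as evidence of nothing. RNA was sequenced in 18 libraries, 12 of colon crypts with 1 mouse each and 6 of cells sorted by flow cytometry. The study asked what loss of Olfr78 does to the whole epithelium, with the crypts, and to the Olfr78-expressing cells themselves, with the sorted cells.

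In the Olfr78-GFP line, a GFP-IRES-tauLacZ cassette replaces the coding exon of Olfr78, so that heterozygous (HE) mice carry 1 working copy and a reporter, and homozygous (KO) mice lack the receptor in all tissues. Crypts of this line came from 2 WT and 5 KO mice. In the second line, the Villin promoter drives Cre in epithelial cells and LoxP sites flank coding exon 3 of Olfr78. Crypts of this line came from 2 mice titled eKO, the study's name for Vil1Cre/+-Olfr78fx/fx mice, and 3 control mice (eCtrl). Elsewhere in the study, controls of this line were Vil1+/+-Olfr78fx/fx and Vil1Cre/+-Olfr78+/+ mice. The genotype label of eCtrl 2 is WT/HO, which would be Vil1+/+-Olfr78fx/fx if Vil1Cre is named first. The library titled eKO 2 carries the same label, as given below, so its genotype is uncertain. Non-epithelial cells of the eKO mice keep Olfr78. The sorted libraries were 2 pools of Epcam+ve/GFP+ve cells from HE animals and 2 from KO animals (each pool combined 2 mice), plus 2 samples of Epcam+ve/GFP-ve cells of 1 WT mouse, called Epcam+ve samples below. Mice used for sorting were 4 to 7 months old, and the age of the mice used for crypt RNA is not given in the sources used here. The lines have distinct genetic backgrounds and separate tables, so genotypes were compared within a line.

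Olfr78 encodes an olfactory-type G protein-coupled receptor that responds to short-chain fatty acids made by gut bacteria, and in the colon epithelium it is found in enteroendocrine cells. A colon crypt holds stem and dividing cells at its base, mucus-making goblet cells and absorptive colonocytes above them, and few enteroendocrine cells. The 7 genes belong to no common pathway. Mpp6 encodes a membrane-associated guanylate kinase scaffold, Nid2 a basement membrane protein, Nupr1 a small stress-induced nuclear protein, and Pfkfb4, Smox and Fmo1 encode enzymes of sugar, polyamine and xenobiotic metabolism, whereas 9130204K15Rik is annotated as a long intergenic non-coding RNA.

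Values are CP20M, the reads of a gene scaled by the authors to 20000000 reads per library. The crypt libraries held 6175301 to 10995300 reads on genes and the sorted libraries 532702 to 2237474, so that 1 read was worth 1.82 to 3.24 CP20M in crypts and 8.94 to 37.5 CP20M in sorted cells. In the bulk libraries, fewer cells of a type and less RNA per cell cannot be told apart. Olfr78 had 88 and 111 CP20M in WT crypts, against 7 to 42 in KO crypts. Its level was 4822 and 4401 CP20M in HE pools against 977 and 837 in KO pools, where the exons outside the replaced one are still counted and Olfr560 shares exon bases with the gene. In the other line, Olfr78 had 105, 61 and 124 CP20M in eCtrl crypts and 21 and 73 in eKO crypts, so the groups overlapped. The library with 73 CP20M, from 40 reads, is the one labelled eKO 2, whose genotype label (WT/HO) is that of eCtrl 2, while eKO 1 is labelled HE/HO. The log2 differences of the 7 genes in this line are therefore given with and without the library labelled eKO 2. Markers of colon epithelium were present in all libraries, and the summed level of 14 stromal and vascular markers was 1244 to 2915 CP20M in WT, 1071 to 2064 in KO, 631 to 2377 in eCtrl and 1126 to 2875 in eKO crypts. The corresponding sums of 11 leukocyte markers were 715 to 870, 440 to 702, 538 to 954 and 557 to 575 CP20M, and KO crypts lay below WT crypts without overlap. Those of 8 goblet cell markers were 403275 to 464790, 384067 to 665307, 415767 to 656123 and 394993 to 562668 CP20M, with overlap in both lines. In the KO line, KO crypts also lay apart from WT crypts in the sums of 7 colonocyte markers (103486 to 132844 against 138937 to 145607 CP20M), of 8 epithelial markers (88216 to 101379 against 102533 to 105818) and of 8 stem and dividing cell markers (15515 to 17943 against 14778 to 15077). In the eKO line these 3 sums overlapped between genotypes. The colonocyte sum was mostly Car1, at 105749 and 111936 CP20M in WT and 69591 to 83771 in KO crypts. Guca2a was also lower in KO crypts without overlap. Car4 (4586 and 3909 in WT, 4709 to 6786 in KO) and Slc9a3 (2589 and 1999 against 3301 to 10136) were higher without overlap. So was Ceacam20 (2072 and 2001 against 2530 to 3577), and Aqp8 and Slc26a3 overlapped. Of the stem and dividing cell markers, Mki67 was higher in KO crypts (8801 to 10599 against 8072 and 7914 in WT). Lgr5 was lower (254 to 401 against 568 and 614), and the others of this list overlapped. The sums thus do not stand for every marker of a list. The part of the cell types of these lists in the crypt values of the 7 genes was not tested.

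Promoter sequences of RefSeq (GRCm38.p6) were matched by symbol to 4 of the 7 genes, Mpp6, Nupr1, Pfkfb4 and Smox. They are shown because Mpp6 was the most abundant of the genes that were lower without Olfr78, while Pfkfb4 and Smox were higher. The stretches lie within the 250 bases before the start given with these RefSeq sequences and run 5′ to 3′ on the plus strand. They leave out any base that the annotation places in an exon of the gene. The RefSeq starts of Pfkfb4 and Smox lie inside the gene spans given below, and so does the whole Smox stretch. Capitals mark ACGTG, the core of the hypoxia response element, searched on both strands and found in the stretch of Mpp6.
Mpp6 (chr6:50109991-50110240): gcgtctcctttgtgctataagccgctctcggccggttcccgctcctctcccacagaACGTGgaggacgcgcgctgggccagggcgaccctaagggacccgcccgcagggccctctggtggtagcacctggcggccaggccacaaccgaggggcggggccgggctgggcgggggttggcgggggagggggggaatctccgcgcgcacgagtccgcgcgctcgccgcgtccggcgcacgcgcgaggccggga
Pfkfb4 (chr9:108991652-108991777): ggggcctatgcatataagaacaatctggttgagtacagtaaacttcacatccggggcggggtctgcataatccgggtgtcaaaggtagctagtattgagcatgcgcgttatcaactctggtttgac
Smox (chr2:131491654-131491763): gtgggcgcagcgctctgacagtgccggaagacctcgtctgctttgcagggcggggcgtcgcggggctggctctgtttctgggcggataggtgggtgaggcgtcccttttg

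The Mpp6 window held 75.6% G and C, against 52.4% for the median of 32536 windows, and ACGTG lay once in it, 194 bases before the start. A second Mpp6 window of the same table (chr6:50110610-50110859, 73.6% G and C) overlaps an Mpp6 exon, is not shown and holds none of the 6 motifs. This core is found in 16.7% of windows of the same length. The window of Nupr1, annotated as exon throughout and not shown, held the E-box CACGTG 225 bases before the start, which contains ACGTG on each strand, and TGATGNA, the core of the element bound by ATF4 and its partners, on the reverse strand 109 bases before the start. These letters are found in 6.04% and 10.3% of windows. In Pfkfb4, TGACG, the core of the cyclic AMP response element, lay 128 bases before the start, at the edge of the annotated exon, and 17.9% of windows hold it. No window of the 4 genes held the AP-1 site TGANTCA (6.73% of windows) or the TATA box TATAAA (12.3%), and the Smox window held none of the 6 motifs searched. A match is a description of the letters in these windows.

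Mpp6 (ENSMUSG00000038388, chr6:50110241-50198939 of GRCm38, plus strand) was the most abundant of the genes that were lower without Olfr78. Its protein holds other membrane proteins together at cell contacts. WT crypts had 2698 and 4409 CP20M of Mpp6, and KO crypts 1343, 1863, 1816, 1303 and 2135. The highest KO crypt lay below the lowest WT crypt, and the KO mean of 1692 ± 358 (SD, n = 5) was 2.1-fold below the WT mean of 3554 ± 1210 (SD, n = 2). Among the eKO line, eCtrl crypts had 4161, 4302 and 2710 CP20M and eKO crypts 1541 and 1976. Both eKO crypts lay below all 3 eCtrl crypts, and the mean was 2.12-fold lower. On the scale of log2(CP20M + 10), the differences were -1.05 (SE 0.21) for KO minus WT and -1.06 (SE 0.24) for eKO minus eCtrl, the latter -1.24 without the library labelled eKO 2. Gsdme, listed as Dfna5, overlaps the end of Mpp6 on the other strand, with no exon base in common.

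9130204K15Rik (ENSMUSG00000086474, chr11:79781979-79872394, minus strand) was the least abundant of the genes by mean CP20M in KO crypts. WT crypts had 112 and 163 CP20M, from 42 and 72 reads, and KO crypts 14, 33, 27, 21 and 53, from 5 to 23 reads. Its mean was 4.65-fold lower in KO than in WT crypts, with no overlap. In the other line, eCtrl crypts had 240, 161 and 109 CP20M, and eKO crypts 46 and 84. The eKO values again lay below all eCtrl values, with a 2.62-fold lower mean. The log2 differences were -1.95 (SE 0.35) in the KO line and -1.25 (SE 0.38) in the eKO line, the latter -1.62 without the library labelled eKO 2 and -0.87 without eKO 1, and the added 10 CP20M understate them at these low levels.

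Fmo1 (ENSMUSG00000040181, chr1:162829561-162866610, minus strand) encodes a flavin monooxygenase that oxidises nitrogen and sulfur in drugs and dietary compounds. It had 72 and 157 CP20M in WT crypts and 56, 107, 50, 51 and 80 in KO crypts. Fmo1 is the one gene of the 7 whose groups overlapped in the KO line, since KO crypts 2 and 5 lay above WT crypt 1, and its log2 difference of -0.62 (SE 0.33) became -0.11 without WT crypt 2 and -1.13 without WT crypt 1. Among the eKO line, eCtrl crypts had 120, 132 and 154 CP20M and eKO crypts 57 and 55. These groups were apart, with a 2.42-fold lower mean in eKO and a log2 difference of -1.13 (SE 0.25), which was -1.11 without the library labelled eKO 2.

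Nid2 (ENSMUSG00000021806, chr14:19751265-19811787, plus strand) encodes nidogen-2, which links laminin and collagen networks in basement membranes. It had 86 and 77 CP20M in WT crypts and 133, 175, 157, 173 and 139 in KO crypts. The corresponding values of the other line were 136, 126 and 131 CP20M in eCtrl crypts and 184 and 230 in eKO crypts. Nid2 was higher without Olfr78 in both lines without overlap, by 1.91-fold and 1.58-fold, with log2 differences of 0.85 (SE 0.18) and 0.61 (SE 0.21). The eCtrl crypts all lay above the WT crypts, at the level of the lowest KO crypts, so the KO and eCtrl ranges overlapped. Without the library labelled eKO 2, the second difference was 0.46, and without eKO 1 it was 0.77. Nid2 shares exon bases with the antisense gene Rtraf, and the strand setting of the counting is not given in the sources used here, so its level is uncertain. Summed stromal markers overlapped between genotypes in both lines, as given above. Of the single markers, Myh11 was higher in KO crypts (107 to 247 CP20M) than in WT crypts (54 and 25), and the others overlapped in this line. In the other line Myh11 overlapped, at 27 to 216 in eCtrl and 87 and 426 in eKO crypts. The part of stromal cells in the Nid2 values was not tested.

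Nupr1 (ENSMUSG00000030717, chr7:126623249-126630861, minus strand) lies 23.9 Mb from Olfr78 on the same chromosome and encodes a chromatin-associated protein induced by many kinds of cell stress. Its values were 1862 and 1996 CP20M in WT crypts and 3126, 2410, 2935, 2764 and 2581 in KO crypts. All KO crypts lay above both WT crypts, with a 1.43-fold higher mean. In the other line it had 2178, 1888 and 2198 CP20M in eCtrl crypts and 3291 and 2325 in eKO crypts. The lower eKO value, that of the library labelled eKO 2, lay close above the highest eCtrl value, and the mean was 1.34-fold higher in eKO. The log2 differences were 0.51 (SE 0.11) and 0.41 (SE 0.19), and the second was 0.66 without the library labelled eKO 2 and 0.16 without eKO 1.

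Pfkfb4 (ENSMUSG00000025648, chr9:108991778-109032228, plus strand) encodes a bifunctional enzyme that sets the level of a fructose bisphosphate which stimulates glycolysis. WT crypts had 301 and 252 CP20M of Pfkfb4, and KO crypts 525, 522, 655, 585 and 442. The mean was 1.97-fold higher in KO, with no overlap. In the other line, eCtrl crypts had 498, 349 and 554 CP20M and eKO crypts 603 and 572. The eKO values lay close above the highest eCtrl value and the mean was 1.26-fold higher. The log2 differences were 0.95 (SE 0.15) and 0.35 (SE 0.22), the latter 0.39 without the library labelled eKO 2. The eCtrl crypts also lay above both WT crypts and within or below the KO range.

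Smox (ENSMUSG00000027333, chr2:131491496-131525922, plus strand) encodes spermine oxidase, which converts spermine to spermidine and releases hydrogen peroxide. It had 307 and 263 CP20M in WT crypts and 434, 496, 468, 419 and 408 in KO crypts. KO crypts lay above WT crypts without overlap, with a 1.56-fold higher mean. In the other line it had 360, 278 and 334 CP20M in eCtrl crypts and 437 and 375 in eKO crypts. The eKO crypts lay above the eCtrl crypts, the one labelled eKO 2 by little, with a 1.25-fold higher mean. The log2 differences were 0.63 (SE 0.13) and 0.32 (SE 0.19), the latter 0.43 without the library labelled eKO 2 and 0.21 without eKO 1.

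**Figure D1:**
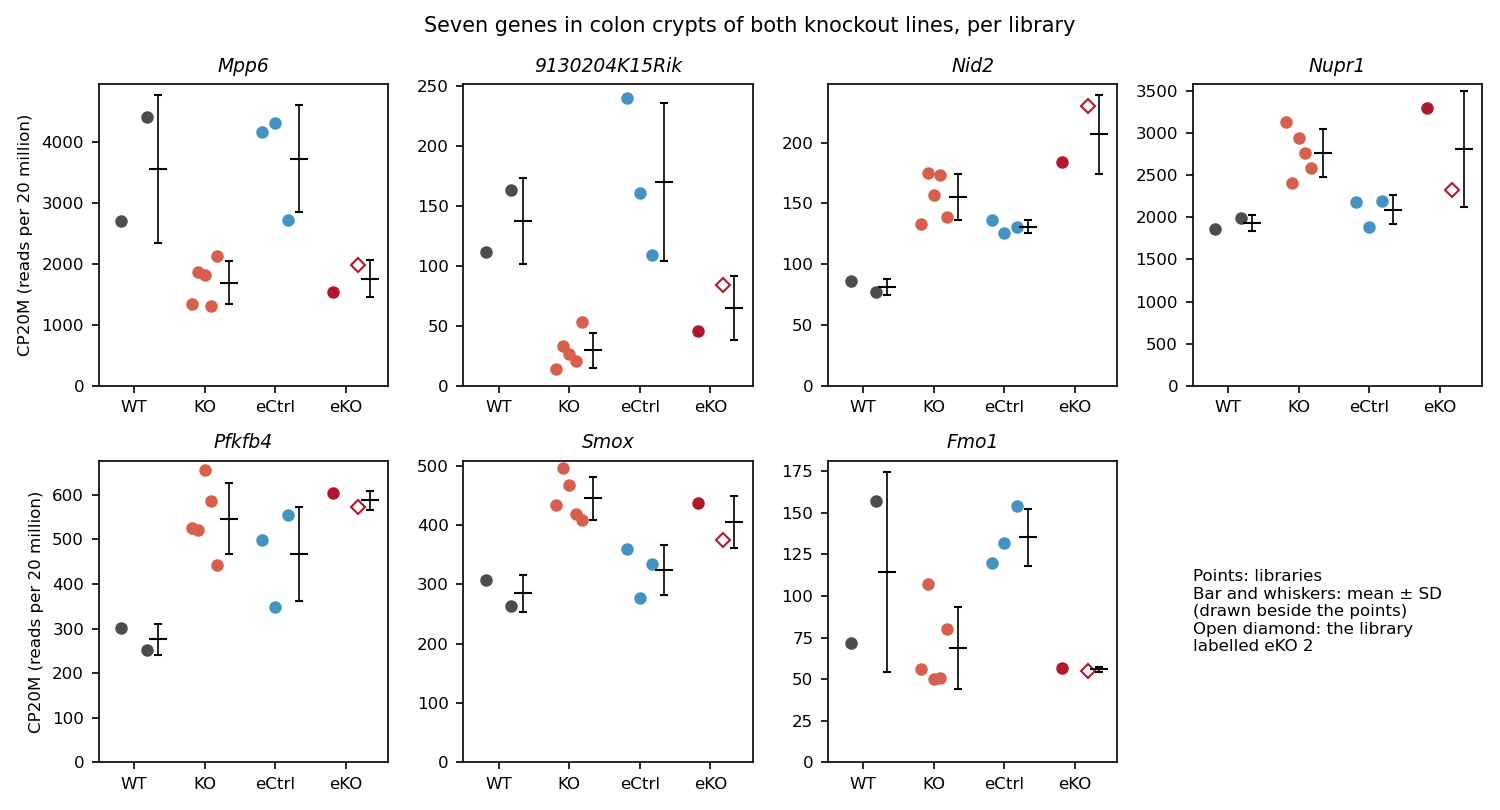
CP20M of the 7 genes in each crypt library of the 4 groups, with the mean and SD of the group drawn beside its points and the library labelled eKO 2 as an open diamond. Mpp6, 9130204K15Rik and Fmo1 have lower means and Nid2, Nupr1, Pfkfb4 and Smox higher means in KO and eKO, and the KO and WT points of Fmo1 overlap (107 in KO against 72 in WT).

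Of the 7 genes, 6 had no overlap between genotypes in both lines, where 1.19% of 16447 genes at 40 CP20M or more in at least 2 crypts had none in the same direction, 0.796% higher and 0.395% lower. Since these contrasts chose the genes, nothing is read from this count. The share of all genes was 30.9% in the KO line alone and 10.4% in the eKO line alone, of which 7.43% higher and 2.93% lower, and the means of 46.9% of genes differed in the same direction in both lines. The margins were small for 3 genes in the eKO line. With median-of-ratios scaling, whose factors were 0.965 to 1.064, the lowest eKO value came under the highest eCtrl value for Nupr1 (2184.5 against 2240.7), Pfkfb4 (537.4 against 538.5) and Smox (352.3 against 370.4), and 3 genes, Mpp6, 9130204K15Rik and Nid2, kept apart in both lines. Without the library labelled eKO 2, the 6 genes again had no overlap, against 3.32% of all genes, 1.73% higher and 1.59% lower.

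As RPKM computed from CP20M, that is scaled to the exon length of each gene, which allows levels of different genes to be compared, Nupr1 (38.4 ± 1.88) and Mpp6 (28.4 ± 9.67) were the highest of the 7 in WT crypts (SD, n = 2). They were followed by 9130204K15Rik (4.70 ± 1.23), Smox (3.66 ± 0.399) and Pfkfb4 (2.84 ± 0.355). Fmo1 (0.908 ± 0.477) and Nid2 (0.788 ± 0.0610) were the lowest. Neighbours in this order lay closer than their summed SDs, except Mpp6 and 9130204K15Rik, Smox and Pfkfb4, and Pfkfb4 and Fmo1. In KO crypts Nupr1 (55.0 ± 5.62) stood further above Mpp6 (13.5 ± 2.87), and Smox (5.71 ± 0.467) and Pfkfb4 (5.60 ± 0.815) stood above Nid2 (1.502 ± 0.185) and 9130204K15Rik (1.012 ± 0.508), with Fmo1 (0.546 ± 0.195) lowest (SD, n = 5).

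The sorted cells did not enter the choice of the genes. The Epcam+ve samples came from a mouse without the reporter, so that the lack of GFP does not set Olfr78-expressing cells aside, and while their titles say GFP-ve, another label calls them enteroendocrine. The GFP+ve pools hold cells with the reporter. The sum of 8 enteroendocrine markers reached 13277 and 13365 CP20M without GFP and 862225 and 1110673 in HE pools, while that of 8 goblet cell markers was 324855 to 368337 and 85625 to 164547. Genes at 40 CP20M or more in at least 2 of the 4 libraries entered a limma fit of log2(CP20M + 10) values, and p was adjusted by Benjamini-Hochberg over 16355 genes. 9130204K15Rik met this filter through the Epcam+ve samples alone and is given by its values, and the other 6 genes were tested.

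Nupr1 was the one gene of these that differed between GFP+ve cells of HE mice and Epcam+ve cells at an adjusted p under 0.05, a threshold passed by 23.8% of genes, 12.5% higher and 11.3% lower. It measured 2986 and 2918 CP20M in Epcam+ve cells, compared with 1370 and 1107 in HE pools. Both HE pools lay below both Epcam+ve samples, and the mean was 2.38-fold lower. The 2 Epcam+ve samples came from 1 WT mouse. Here and for the genes that follow, SE and p therefore hold no spread between mice on that side. Genotype (WT against HE) also differed between these groups, together with the sorted cell type. The log2 difference was -1.25 (SE 0.20, adjusted p = 0.0037, limma), and over the alternative settings it stayed between -1.41 and -1.10 with adjusted p from 1.62e-05 to 0.0574, the highest from limma without a trend of the spread. The sums of goblet (above), colonocyte (20019 to 42083 against 81920 to 93555 CP20M) and stem and dividing cell markers (2139 to 7013 against 21958 to 23308) were also lower in these pools, and their part in the Nupr1 difference was not tested. Ceacam20 of the colonocyte list went the other way, at 1404 and 2507 CP20M in HE pools against 859 and 668. Reg4 of the goblet list was not lower, at 15293 and 16816 against 11174 and 15944, with overlap. Ascl2 of the stem and dividing cell list also overlapped, at 93 and 0 against 81 and 155.

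Mpp6 measured 2718 and 2538 CP20M in Epcam+ve cells, compared with 2221 and 2521 in HE pools. These values lay close together, with a log2 difference of -0.15 (SE 0.18, adjusted p = 0.597, limma). The groups nearly touched, with the lower Epcam+ve sample close to the higher HE pool. Pfkfb4 measured 242 and 288 CP20M in Epcam+ve cells, compared with 173 and 81 in HE pools, a log2 difference of -1.09 (SE 0.50, adjusted p = 0.154, limma). Fmo1 had 135 and 114 CP20M against 47 and 14, the last from a single read, a log2 difference of -1.86 (SE 0.66, adjusted p = 0.0759, limma). For both genes the groups did not overlap, and the result turned on which HE pool was left out. Pfkfb4 differed by -1.59 without HE pool 1 (adjusted p = 0.0168, limma) and by -0.58 without HE pool 2 (adjusted p = 0.399, limma). Fmo1 differed by -2.48 without HE pool 1 (adjusted p = 0.0116, limma) and by -1.23 without HE pool 2 (adjusted p = 0.193, limma). In these fits the lone HE pool is assumed to vary as the Epcam+ve samples do.

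Smox measured 313 and 185 CP20M in Epcam+ve cells, compared with 415 and 254 in HE pools, with overlapping groups and a log2 difference of 0.42 (SE 0.43, adjusted p = 0.529, limma). Nid2 had 108 and 52 against 58 and 41, also overlapping, with a log2 difference of -0.54 (SE 0.63, adjusted p = 0.583, limma). For 9130204K15Rik, 5 reads in each Epcam+ve sample gave 45 and 52 CP20M, and 3 and 0 reads in the HE pools gave 35 and 0. In the HE pools 3 reads are worth 34.5 and 40 CP20M, so these values do not show whether its level differed. At the stricter thresholds of an adjusted p under 0.001 and a log2 difference beyond 2, passed by 1.75% of genes, limma called 0 of the 6 genes tested, as did edgeR and DESeq2 on recovered reads, while 2 of these 6 and 6086 of 16355 genes had an unadjusted p under 0.05 by limma.

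**Figure D2:**
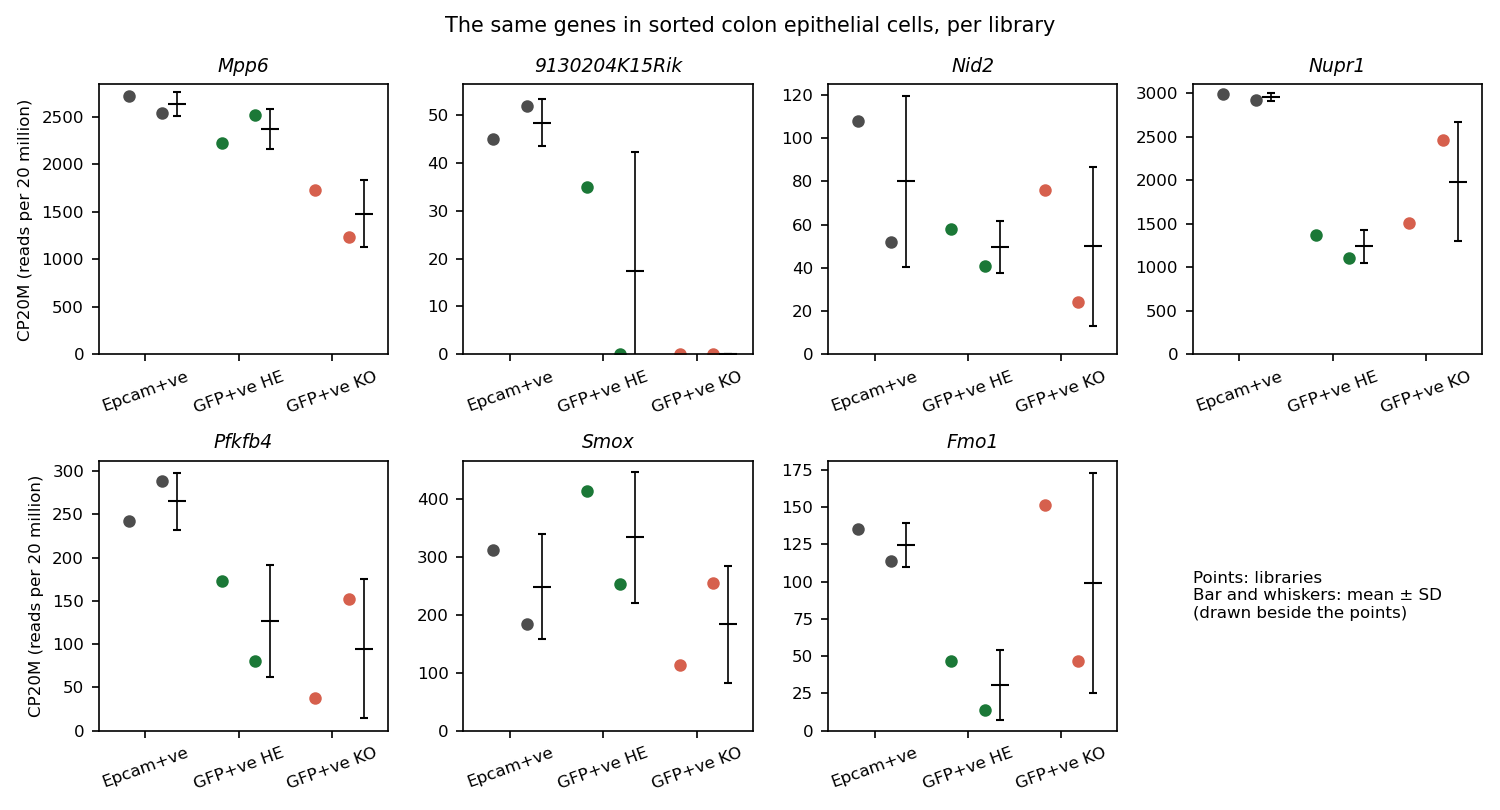
CP20M of the 7 genes in each sorted library, 2 per group, with the mean and SD of the group beside its points. Nupr1 lies at 2986 and 2918 in Epcam+ve samples and at 1370 and 1107 in HE pools, Mpp6 is lowest in the KO pools, and 9130204K15Rik is at 0 in 3 of the 6 libraries.

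The comparison of KO with HE pools asks what the loss of the receptor does in the cells that would express it. KO pool 1 had 532702 reads on genes, the fewest of all libraries, and 1 read was worth 37.5 CP20M there. Only genes above 40 CP20M in all 4 pools were tested, as in the methods, and 3 of the 7 passed, Mpp6, Nupr1 and Smox. At an adjusted p under 0.05, limma called 0 of 11892 genes and so none of the 3, and 503 genes (4.23%) had an unadjusted p under 0.05, also none of the 3. The edgeR test on recovered reads called 0 genes and DESeq2 called 8, with none of the 7 among them. Without KO pool 1, limma called 120 genes higher and 253 lower, and without KO pool 2 it called 5 higher and 91 lower, again with none of the 7.

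Mpp6 measured 2221 and 2521 CP20M in HE pools, compared with 1728 and 1232 in KO pools. The groups did not overlap and the mean was 1.6-fold lower in KO, with a log2 difference of -0.69 (SE 0.31, adjusted p = 0.931, limma). The median difference of all genes tested was -0.18 and became 0.00 with median-of-ratios scaling, and relative to it Mpp6 differed by -0.51. Mpp6 was also past the criterion of the methods, in which the pools' means must lie apart by more than 2 mean SDs and by more than 1.5-fold, which 13.2% of genes passed, 9.98% lower and 3.23% higher. Nupr1 measured 1370 and 1107 CP20M in HE pools, compared with 1502 and 2464 in KO pools, without overlap, a log2 difference of 0.64 (SE 0.35, adjusted p = 0.931, limma) and 0.82 relative to the median gene. Smox had 415 and 254 CP20M against 113 and 256, the 113 from 3 reads, with overlapping groups, a log2 difference of -0.89 (SE 0.59, adjusted p = 0.931, limma) and -0.71 relative to the median gene. Neither Nupr1 nor Smox passed the criterion of the methods. Enteroendocrine markers summed to 361092 and 604730 CP20M in the KO pools, below the HE pools, and goblet cell markers to 70775 and 340048, and the part of these values in the differences was not tested.

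The other 4 genes are given by their values. In KO pools, Pfkfb4 had 1 and 13 reads or 38 and 152 CP20M, and Fmo1 had 151 and 47, from 4 reads in each. Nid2 had 76 and 24, from 2 reads in each, and 9130204K15Rik had no read in either KO pool, where 3 reads would be 112.6 and 34.9 CP20M. The KO and HE pools overlapped or touched in each of these 4 genes.

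**Figure D3:**
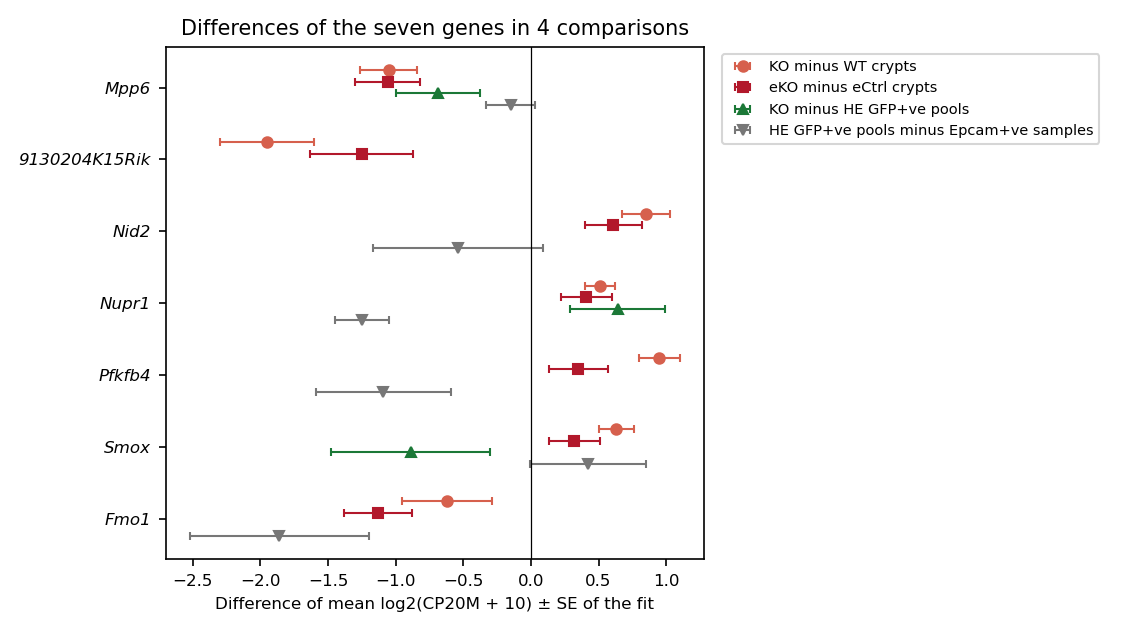
Difference of the mean log2(CP20M + 10) of each gene with the SE of the fit, in 4 comparisons named in the legend. The 2 crypt differences, which chose the genes, lie on the same side of 0 for each gene. In KO against HE pools 3 genes were tested, Mpp6 (-0.69), Nupr1 (0.64) and Smox (-0.89), and 9130204K15Rik is left out of the comparison of HE pools with Epcam+ve samples, for its low reads.

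Genes related to the 7 by pathway were taken as 7 lists with 117 genes: ATF4 targets and other stress response genes beside Nupr1, glycolysis and hypoxia-induced genes beside Pfkfb4, polyamine genes beside Smox, basement membrane genes beside Nid2, flavin monooxygenases beside Fmo1 and membrane guanylate kinase scaffolds beside Mpp6. In the crypts of both lines fitted together, with the line as a covariate, limma called 0 of 101 list genes tested at an adjusted p of at most 0.2 and a difference beyond 1.5-fold, thresholds passed by 4 of 16447 genes (0.0243%, with 0.00608% higher and 0.0182% lower). At an unadjusted p under 0.05, 8 list genes were higher and 8 lower, or 16 of 101, where 7.70% of all genes passed, 5.00% higher and 2.71% lower. The edgeR and DESeq2 tests on recovered reads also called 0 list genes. Without eKO 1, limma called 1008 genes higher and 126 lower, with Lama3, Lama5 and Hspg2 among them, and without the library labelled eKO 2 it called 3 higher and 29 lower, with Mpp1 among them. The list medians lay between -0.25 (flavin monooxygenases) and 0.20 (basement membrane), with 0.03 for all genes.

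In the KO line alone, 9 of 99 list genes passed these thresholds with limma, 5 higher and 4 lower, and 9.48% of all genes did, 7.95% higher and 1.53% lower. Of the basement membrane list, 3 of 19 genes rose and 1 fell. Lama5, a laminin chain of epithelial basement membranes, had 112 and 116 CP20M in WT crypts and 315, 467, 366, 454 and 229 in KO crypts, a log2 difference of 1.56 (SE 0.23, adjusted p = 0.00539, limma). Lama3, a chain of the laminin that anchors epithelial cells, rose by 1.10 (SE 0.17, adjusted p = 0.0063, limma), from 1375 and 1098 to between 2061 and 3250 CP20M. Hspg2, the proteoglycan perlecan, rose by 0.62 (SE 0.21, adjusted p = 0.0904, limma), and was short of the thresholds without WT crypt 2 (0.38) and without KO crypt 1 or 3 (0.57 and 0.51). Nid1, the paralog of Nid2, went the other way in this line. It had 331 and 75 CP20M in WT crypts and 133, 78, 43, 40 and 39 in KO crypts. The log2 difference was -1.29 (SE 0.50, adjusted p = 0.131, limma), and -0.29, under the fold threshold, without WT crypt 1. Nid1 was also not called by DESeq2, by limma without a trend, without the filter on low values or with the replicate number as a block.

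The relatives of Mpp6 passed in both directions. Mpp1 had 743 and 851 CP20M in WT crypts and 420, 515, 444, 560 and 539 in KO crypts, a log2 difference of -0.68 (SE 0.13, adjusted p = 0.0141, limma). Mpp3 was higher by 0.62 (SE 0.17, adjusted p = 0.0453, limma), at 142 and 136 against 191 to 273 CP20M, and was not called with a pseudocount of 40. Without WT crypt 2 neither passed the thresholds, with log2 differences of -0.58 and 0.59 and adjusted p of 0.198 and 0.284 (limma), and Mpp3 was also short of them without KO crypt 2 (0.55). Of the other lists, Cth, which makes cysteine, fell by 0.70 (SE 0.13, adjusted p = 0.0114, limma), and Arg2, the arginase that supplies ornithine to polyamine synthesis, fell by 0.86 (SE 0.17, adjusted p = 0.0132, limma). Vegfa, the endothelial growth factor, rose by 0.60 (SE 0.12, adjusted p = 0.0141, limma). Its log2 difference was 0.57 and short of the threshold with median-of-ratios scaling and without KO crypt 3. It was 0.58 without KO crypt 4, and 0.43 without WT crypt 2. Vegfa was also not called by edgeR, by DESeq2 or with the replicate number as a block. No gene of the glycolysis list or the flavin monooxygenase list passed both thresholds. Among the relatives of Pfkfb4, Pfkfb2 had a log2 difference of 0.49 (SE 0.11), Pfkfb3 of 0.58 (SE 0.24) and Pfkfb1 of -0.12 (SE 0.25). Among those of Fmo1, Fmo5 had -0.55 (SE 0.13), and all of these were under the fold threshold. In the eKO line the differences were -0.11 (SE 0.21) for Pfkfb2, -0.28 (SE 0.35) for Pfkfb3, -0.16 (SE 0.33) for Pfkfb1 and -0.38 (SE 0.28) for Fmo5.

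In the eKO line alone, limma called 0 of 98 list genes and 0 of 15401 genes in all, with 1 list gene and 127 genes (0.825%) at an unadjusted p under 0.05. On recovered reads edgeR called 0 genes and DESeq2 called 1 higher and 5 lower, none of them on a list, and limma called 6 lower without the library labelled eKO 2. Lama5 had 89, 290 and 514 CP20M in eCtrl crypts and 190 and 597 in eKO crypts. Lama3 had 1136, 1923 and 3270 against 1173 and 3084, so both laminin genes spread as widely among eCtrl crypts as between genotypes. Arg2 had 509, 319 and 486 against 417 and 441, and Mpp1 had 1050, 830 and 968 against 545 and 1063, where the lower value is eKO 1. Nid1 had 19, 94 and 50 against 113 and 70, with overlap. Its log2 difference was 0.81 (SE 0.54), in the direction of Nid2 and opposite to that of Nid1 in the KO line. The difference between the lines was tested by the interaction of line and genotype, and no list gene had an adjusted p under 0.557 (limma), with 2 of 16447 genes under 0.05.

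**Figure D4:**
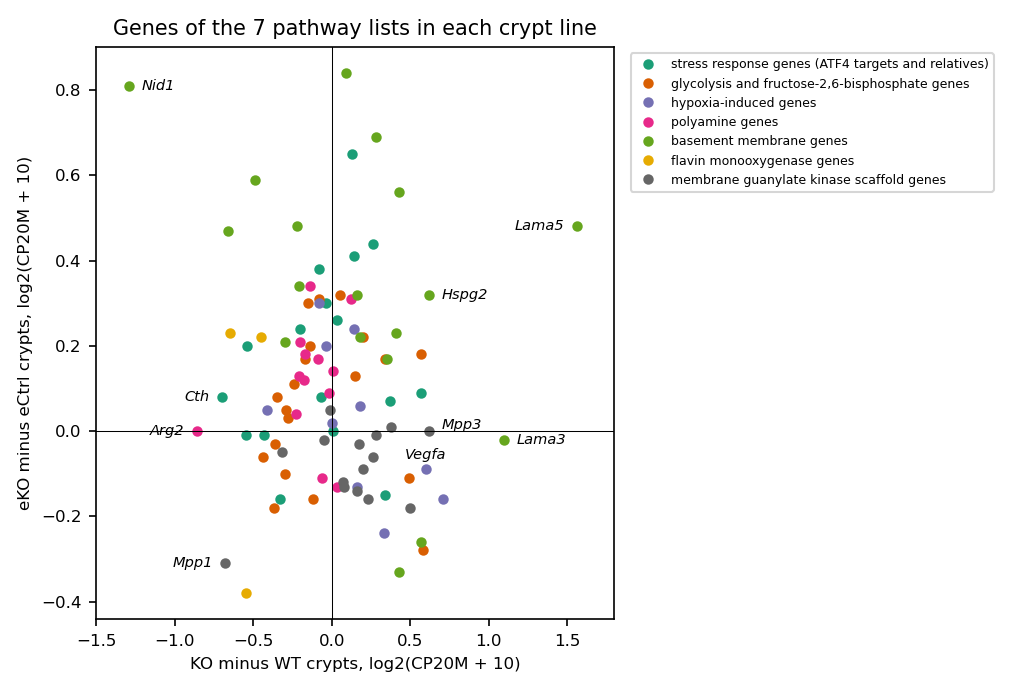
Log2 difference of each gene of the 7 lists in the KO line (horizontal) and in the eKO line (vertical), coloured by list, with the 9 genes past the thresholds in the KO line named. Lama5 (1.56) and Lama3 (1.10) lie far to the right and Nid1 (-1.29) far to the left, and no gene passed in the eKO line.

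In HE pools against Epcam+ve samples, 1 of 96 list genes passed the strict thresholds, where 1.75% of all genes did. It was Dlg4, a scaffold of synapses, which had 9 and 0 CP20M in Epcam+ve cells and 645 and 1054 in HE pools. Dlg4 met the filter on low values through the HE pools alone, and its fitted log2 difference was set by the pseudocount, at 8.03 with 1 and 4.29 with 40, so it is given by its values. At an adjusted p under 0.05, 16 of the 96 list genes were higher and 17 lower, where 12.5% of all genes were higher and 11.3% lower, the shares to set beside each list that follows. These counts hold genes that met the filter through the group where they were high. Dlg4, Mpp2, Fmo2, Azin2 and Nid1 did so through the HE pools alone, and Col18a1 through the Epcam+ve samples alone. For these genes nothing is read from the count, and their values are given. Of the stress response list beside Nupr1, 6 of 16 genes rose and 3 fell. Vldlr rose by 1.60 (SE 0.23) and Psat1, an enzyme of serine synthesis, by 1.88 (SE 0.33). Atf4 itself rose by 0.67 (SE 0.18, adjusted p = 0.0289, limma). The 3 that fell were Cth at -2.59 (SE 0.66), Phgdh at -2.07 (SE 0.62) and Ddit4 at -1.55 (SE 0.45). Phgdh had 7 and 2 reads in the HE pools. Nupr1 thus fell as these 3 genes of the list did. Of the hypoxia-induced list, 3 of 10 rose and 1 fell, with P4ha1, a collagen prolyl hydroxylase, at 2.39 (SE 0.29), Vegfa at 1.89 (SE 0.23) and Bnip3, a mitophagy receptor, at 2.37 (SE 0.43). The glycolysis list held 1 of 20 genes that rose and 5 that fell.

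Among the relatives of Nid2, Hspg2 fell by 2.28 (SE 0.35, adjusted p = 0.00321, limma) in HE pools, and 2 of 14 genes rose and 3 fell. Of these, Nid1 had 27 and 0 CP20M in Epcam+ve cells against 242 and 67, and Col18a1 had 135 and 83 against 12 and 0. Among the scaffolds, Magi3 fell by 1.25 (SE 0.23), and 2 of 18 genes rose and 2 fell. The 2 that rose were Dlg4 and Mpp2. Mpp2 had 18 and 31 CP20M in Epcam+ve cells against 219 and 334 and met the filter through the HE pools alone. Of the flavin monooxygenases, Fmo5 fell by 1.25 (SE 0.28), and Fmo2 had 36 and 11 CP20M against 254 and 321, likewise meeting the filter through the HE pools alone. Of the polyamine list, 1 of 15 genes rose and 2 fell, among them Sat1, which acetylates spermidine and spermine for export, at -0.99 (SE 0.21, adjusted p = 0.0124, limma). The gene that rose was Azin2, at 0 and 0 CP20M in Epcam+ve cells against 81 and 54. In KO against HE pools, limma called 0 of 74 list genes, with 1 higher and 5 lower at an unadjusted p under 0.05. That threshold was passed by 4.23% of all genes in either direction. By the criterion of the methods, 1 list gene was higher and 10 were lower, where 3.23% of all genes were higher and 9.98% lower. The 10 were 5 of 13 stress response, 2 of 17 glycolysis, 2 of 6 hypoxia-induced and 1 of 11 polyamine genes. The median log2 difference was -0.33 for the list genes and -0.18 for all genes tested.

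Whether the 7 genes vary together was examined within groups, on deviations from the 4 group means of the 12 crypts, which the choice of the genes did not use. Mpp6 and 9130204K15Rik had the highest correlation of the 21 pairs, with Pearson r = 0.87 and Spearman rho = 0.84 over 12 crypts (exact permutation within groups, two-sided, p = 0.00451 and 0.00347). After adjustment over the 21 pairs these were 0.0948 and 0.0729, so no pair passed 0.05. The r was 0.85 without the 2 crypts farthest from the median of Mpp6, and it was 0.87 within the KO line and 0.86 within the eKO line. WT crypt 2 had more of both genes than WT crypt 1, and so had KO crypt 5 than KO crypts 1 to 4.

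The next pairs were Pfkfb4 with Smox (r = 0.68, exact permutation p = 0.0625, adjusted p = 0.501), whose r dropped to 0.38 without the 2 farthest crypts, and Mpp6 with Pfkfb4 (r = -0.59, exact permutation p = 0.099, adjusted p = 0.501). Nid2 and Mpp6 varied with an r of -0.03. Of the 21 pairs, 1 had an unadjusted p under 0.05.

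The 3 genes whose crypt pattern was most like that of each of the 7 were named from 13107 genes at 40 CP20M or more in all 12 crypts, by Pearson r on log2(CP20M + 10) with each line centred on its mean. These points share the genotype groups that chose the 7 genes, so r is a description and the r within groups is given beside it. For Mpp6 they were Gsdmc4 (r = 0.95, 0.85 within groups), a gasdermin, Papss2 (0.946 and 0.87), which makes the sulfate donor used for mucin sulfation, and Dfna5 (0.945 and 0.91), the gasdermin that overlaps Mpp6. For 9130204K15Rik they included Papss2 (0.948 and 0.75) and Gsdmc4 (0.938 and 0.85). Mpp6 and 9130204K15Rik thus had Gsdmc4 and Papss2 in common.

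Gsdmc4 had 11866 and 21121 CP20M in WT crypts, and KO crypts had 5162, 8832, 6357, 7335 and 11161. In the eKO line it had 25839, 24688 and 14166 CP20M in eCtrl and 10215 and 10581 in eKO crypts. Gsdmc4 lay lower without Olfr78 in both lines without overlap, though its near-identical paralogs could have split its reads. Because Gsdmc4 and Papss2 were picked for their likeness to Mpp6 in these same crypts, nothing is read from their lack of overlap. Papss2 had 16409 and 24498 in WT, 9538 to 13028 in KO, 17294, 18917 and 16262 in eCtrl and 10954 and 13262 in eKO crypts, and likewise did not overlap. Dfna5 had 1231 and 1818 in WT, 857 to 1215 in KO, 1486, 1737 and 1278 in eCtrl and 805 and 1206 in eKO crypts. Reg4, a marker of a goblet cell subset, had 10830 and 13902 CP20M in WT, 907 to 5127 in KO, 11263, 8513 and 7858 in eCtrl and 3046 and 5305 in eKO crypts. It was thus lower without Olfr78 in both lines without overlap, as Mpp6, 9130204K15Rik and Papss2 were, while the sum of all 8 goblet markers overlapped, and the part of that cell subset in these values was not tested. Among the sorted libraries, Reg4 had 15293 and 16816 CP20M in HE pools, 7472 and 3428 in KO pools and 11174 and 15944 in Epcam+ve samples. Its HE values thus overlapped those of the Epcam+ve samples. Both KO pools lay below both HE pools, a comparison in which limma called no gene, as given above. The part of GFP+ve cells in the crypt values of Reg4 was also not tested. Reg4 was named after its values were seen, and 0.395% of genes lay lower in both crypt lines without overlap.

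**Figure D5:**
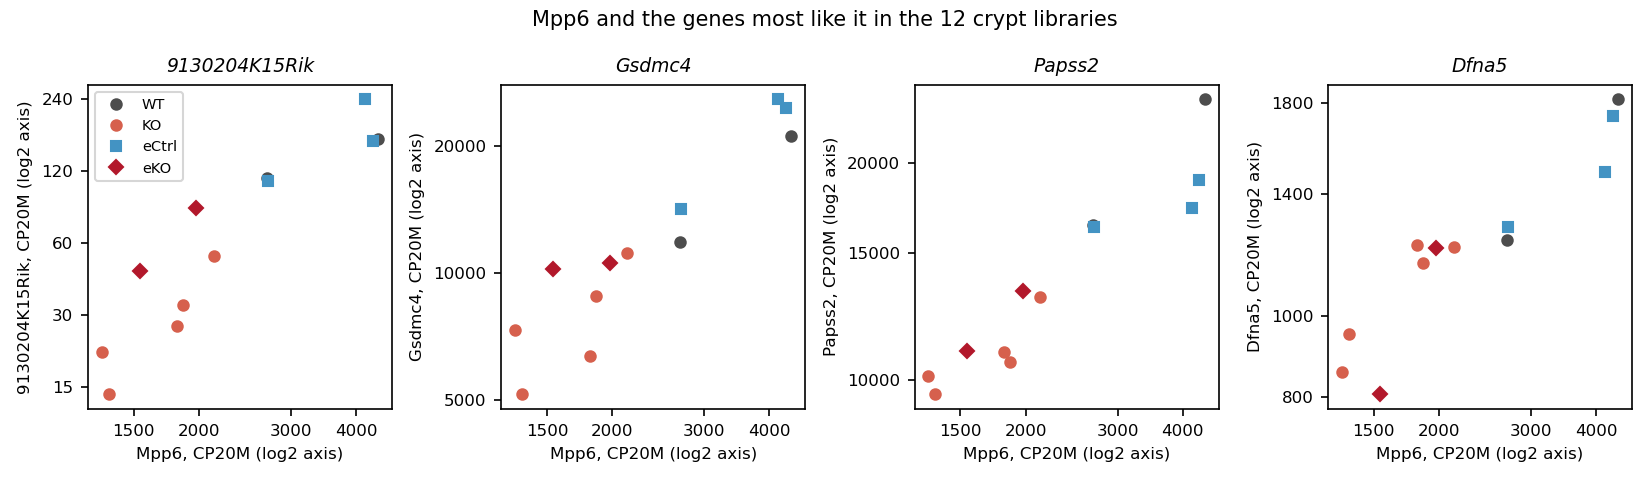
CP20M of 9130204K15Rik, Gsdmc4, Papss2 and Dfna5 against that of Mpp6 in the 12 crypts, on log2 axes, with WT and KO as circles, eCtrl as squares and eKO as diamonds. The points of each panel lie along a rising band, with KO and eKO crypts at the lower end and Mpp6 from 1303 to 4409 CP20M.

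For Fmo1, the genes most alike were Gsdmc (0.832 and 0.54), Gsdmcl2 (0.808 and 0.57) and Dennd2c (0.806 and 0.94), the lowest likeness of the 7. For Nupr1 they were Gdpd5 (0.975 and 0.93), whose mean was 109.0 ± 7.1 CP20M in WT (SD, n = 2) and 180.0 ± 32.2 in KO crypts (SD, n = 5), Zdhhc14 (0.95 and 0.89) and Zfp2 (0.945 and 0.93). For Pfkfb4 and Smox the nearest gene was the same, Sgsm3 (0.941 and 0.81 for Pfkfb4, 0.931 and 0.75 for Smox). The others were Unc45a and Mycbpap for Pfkfb4 and Ern2, a stress sensor of goblet cells, and Tnfaip8 for Smox. For Nid2 they were Tor3a (0.91), Vasn (0.909) and Noxo1 (0.908), and the r within groups was 0.03 for Tor3a, so that this likeness rested on the differences between groups. Without the library labelled eKO 2, r changed by at most 0.04 for the 21 relations.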

How the data were processed

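RNA of 12 crypt and 6 sorted-cell libraries was prepared with the Ovation Solo kit, sequenced paired-end, aligned with STAR to GRCm38 and counted per gene of Ensembl 90 with HTSeq. The authors deposited the sorted-cell values as a signal, the reads per gene scaled to 20000000 (CP20M), and the crypt values as a score on the same scale, all rounded up to whole numbers. Table totals were 20008418 to 20018145. Dividing by the value of 1 read gave whole reads for 99.84% to 99.99% of values, within rounding, and these recovered reads were used for edgeR and DESeq2 as alternatives, since the deposited values are not counts.

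Values were tested on log2(CP20M + 10) with limma 3.58.1 (R 4.3.3) with a trend and Benjamini-Hochberg adjustment over all genes at 40 CP20M (2 CPM) or more in at least 2 libraries, or above it in all 4 pools for KO against HE. The strict thresholds for HE against Epcam+ve, the criterion for KO against HE and the crypt thresholds followed the methods, and an adjusted p under 0.05 was added for both sorted comparisons. The alternatives were edgeR 4.0.16, DESeq2 1.42.0, other pseudocounts and filters, median-of-ratios scaling, a replicate block and leaving out each library. The fits were tested on simulated data. Floors of 3 reads cover counting error only, and the 2 Epcam+ve samples come from 1 mouse, so that their spread is technical.

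The 7 genes and the pathway lists were chosen with earlier results of these data known. Of the lists, the text names genes past the thresholds of a comparison, at most 8 by smallest p. Nid1, Pfkfb1, Pfkfb2, Pfkfb3, Fmo2, Fmo5, Mpp2, Atf4, Phgdh, Ddit4, Sat1, Azin2, Col18a1 and Reg4 were named outside this rule after their values were seen. The same holds for Cth in HE pools against Epcam+ve samples. So were the single cell type markers Car1, Guca2a, Car4, Slc9a3, Ceacam20, Aqp8, Slc26a3, Mki67, Lgr5, Ascl2 and Myh11. For 3 list symbols with several gene IDs, the ID with the larger sum was used. Lengths and positions came from GENCODE M21. Of the genes most alike in pattern, 1 is not reported here.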

Additional observations from a re-analysis of the deposited data

How the results depend on the processing

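Of the alternatives to the results that answer a comparison, 90 gave a like value and 6 moved it. These results are counts, which have no direction to reverse, and counts that stayed at 0 are among the like values. They include 16 alternatives for the lack of overlap in both crypt lines, the contrast that chose the genes, from which nothing is read. No log2 difference or correlation examined under the alternatives changed its sign. Between HE pools and Epcam+ve cells, the number of the 7 genes with an adjusted p under 0.05 was 0 with limma without a trend, and 1 to 3 when libraries were left out, with 3 without HE pool 1. The number of genes called in all was 259 higher and 28 lower with limma, 580 and 175 with edgeR, 548 and 143 with DESeq2, 72 and 5 with a pseudocount of 1, 439 and 83 with a pseudocount of 40 and 0 with limma without a trend, where 5289 had an unadjusted p under 0.05. Of the 7 genes, 3 had no overlap in both crypt lines with median-of-ratios scaling. The number of pathway genes called in crypts of both lines was 0 to 3 when libraries were left out, and all genes called were 3 higher and 6 lower with edgeR and 17 and 21 with DESeq2, against 1 and 3 with limma.

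The groups share replicate numbers, but no label ties them to a litter or day. With the replicate number as a block, 1 pathway gene, Lama5, was called in crypts of both lines, and 17 in the KO line alone against 9 without the block. In HE pools against Epcam+ve samples, the block gave 406 higher and 117 lower genes. Same-numbered samples had correlations of deviations of 0.59 and 0.36 for eCtrl and eKO, 0.06 and -0.1 for WT and KO, 0.03 for HE and Epcam+ve and -0.16 for HE and KO pools. The criterion of the methods was not run with a pool left out, since it needs an SD. KO pool 1 limits what can be seen in KO pools, where 3 reads were worth 112.6 CP20M.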
